A study of Homo sapiens with 6 samples.

Results

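The 9 genes described here encode proteins that hold epithelial cells together or cover their surface: EPCAM, CDH1, CDH17, CLDN3, CLDN4, CLDN7, CEACAM5, CEACAM6 and VIL1. They were chosen by symbol, and all 9 of 9 were present among the 58302 genes of the expression tables, of which 19847 are protein-coding. The RNA came from SW480 and DLD-1, 2 human colorectal cancer cell lines that the labels give as wild type and untreated, so that no group carries an allele or an agent. For each line the labels name 1 Input library of total RNA, 1 library of RNA co-precipitated with the acetyltransferase NAT10 (RIP) and 1 library of RNA fragments pulled down with an antibody against N4-acetylcytidine, or ac4C (acRIP). Each line is a single established culture with 1 library per group, so there were no replicates. Each difference below compares libraries, no p-value was computed, and intervals cover the counting of reads only, in which PCR copies are not independent molecules.

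Sheets of epithelial cells are joined by adherens junctions, in which cadherins bind across the cell border and catenins link them to actin. Tight junctions lie above them and are built from claudins, some of which seal the gap between cells while others form ion pores. The transcription factors ZEB1 and SNAI1 bind E-box elements and repress CDH1 and other epithelial genes. SW480 is known as the more mesenchymal of these lines, with vimentin (VIM) and ZEB1 present, whereas DLD-1 is known as the more epithelial, with little of either.

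Upstream sequence was available for 5 of the 9 genes, as the 250 bases before each RefSeq start on GRCh38.p14. They were searched for the E-boxes CACCTG and CAGGTG, each of which is the other read on the opposite strand. CLDN7 and the pair CEACAM5 and CEACAM6 are shown, since CLDN7 held most of the E-boxes and CEACAM5 and CEACAM6 are close paralogs whose reads can be confused. E-boxes are in capitals.
CLDN7, chr17:7262479-7262728, minus strand: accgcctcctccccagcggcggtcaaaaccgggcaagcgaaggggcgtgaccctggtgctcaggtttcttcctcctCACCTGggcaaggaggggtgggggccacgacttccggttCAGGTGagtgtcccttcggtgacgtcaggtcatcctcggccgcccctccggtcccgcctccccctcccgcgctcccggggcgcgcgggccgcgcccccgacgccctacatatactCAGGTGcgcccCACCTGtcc
CEACAM5, chr19:41708376-41708625, plus strand: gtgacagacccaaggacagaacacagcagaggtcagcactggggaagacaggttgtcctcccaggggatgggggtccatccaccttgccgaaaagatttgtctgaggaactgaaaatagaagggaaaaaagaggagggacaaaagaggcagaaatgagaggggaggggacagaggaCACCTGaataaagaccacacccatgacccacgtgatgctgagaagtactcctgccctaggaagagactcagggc
CEACAM6, chr19:41755280-41755529, plus strand: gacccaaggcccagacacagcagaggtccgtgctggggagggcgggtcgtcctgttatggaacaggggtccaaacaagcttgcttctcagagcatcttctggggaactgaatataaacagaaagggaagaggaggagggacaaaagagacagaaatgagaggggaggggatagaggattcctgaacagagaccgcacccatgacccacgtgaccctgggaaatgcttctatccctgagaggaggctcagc
The CLDN7 window held 4 E-boxes and that of CEACAM5 held 1. None was found in the windows of CEACAM6, CLDN3, CLDN4 or the second, outer start of CLDN7. Of all 35116 windows of this length, 17.5% held at least 1. The windows of CEACAM5 and CEACAM6 were identical at 190 of 242 aligned bases (78.5%). These windows lie before the RefSeq starts, and the transcripts themselves were not aligned. A match is a run of letters and not a binding site.

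The values of the RIP table are FPKM (fragments scaled to transcript length and library size), deposited for RIP and Input under both labels. A second table, deposited with the acRIP data, gives Input values under the same 2 labels, and its values were read as FPKM. Whether these Inputs are the same RNA as those of the RIP table is not stated. The FPKM values of the RIP table fell on whole reads for 23506 of 23515 genes (within a tolerance of 0.001), which gave at least 26245762 reads for the RIP library labelled SW480 and 21773924 for that labelled DLD-1, against 11931422 and 11178713 for the Inputs. Every label stands as deposited, but the libraries go against each other by label. VIM was at 128 FPKM in the RIP library labelled SW480 and at 0.804 FPKM in that labelled DLD-1, whereas the Inputs had 0.0770 FPKM under the label SW480 and 11.1 FPKM under DLD-1. In the acRIP table the Input values of VIM were 0.0881 and 51.2 FPKM. ZEB1 was at 5.27 and 0.108 FPKM in the RIP libraries and at 0.0764 and 5.13 FPKM in the Inputs, with 0.494 and 4.34 FPKM in the acRIP table (SW480 first in each pair). Against what is known of these lines, the RIP libraries therefore follow their labels for VIM and ZEB1, and the Inputs of both tables run opposite to theirs. How this came about was not tested. Markers of leukocytes, endothelium and fibroblasts summed to at most 2.21 FPKM per list in any column, while 12 epithelial markers, these 9 genes among them, summed to between 989 and 3474 FPKM.

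The plot of levels shows that EPCAM, CDH1, CLDN3, CLDN4 and CLDN7 were at 6.71 FPKM or more in every column, and that the other genes were low in some columns or in all. EPCAM, the epithelial adhesion molecule of colorectal tumours, was the most abundant of the 9 in each column. It reached 324 FPKM in the Input labelled SW480 and 127 FPKM in the Input labelled DLD-1, and 95.0 and 306 FPKM in the RIP libraries in the same order. The acRIP table had 214 and 65.0 FPKM. The high values of EPCAM thus lie in both Inputs labelled SW480 and in the RIP library labelled DLD-1.

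**Figure D1:**
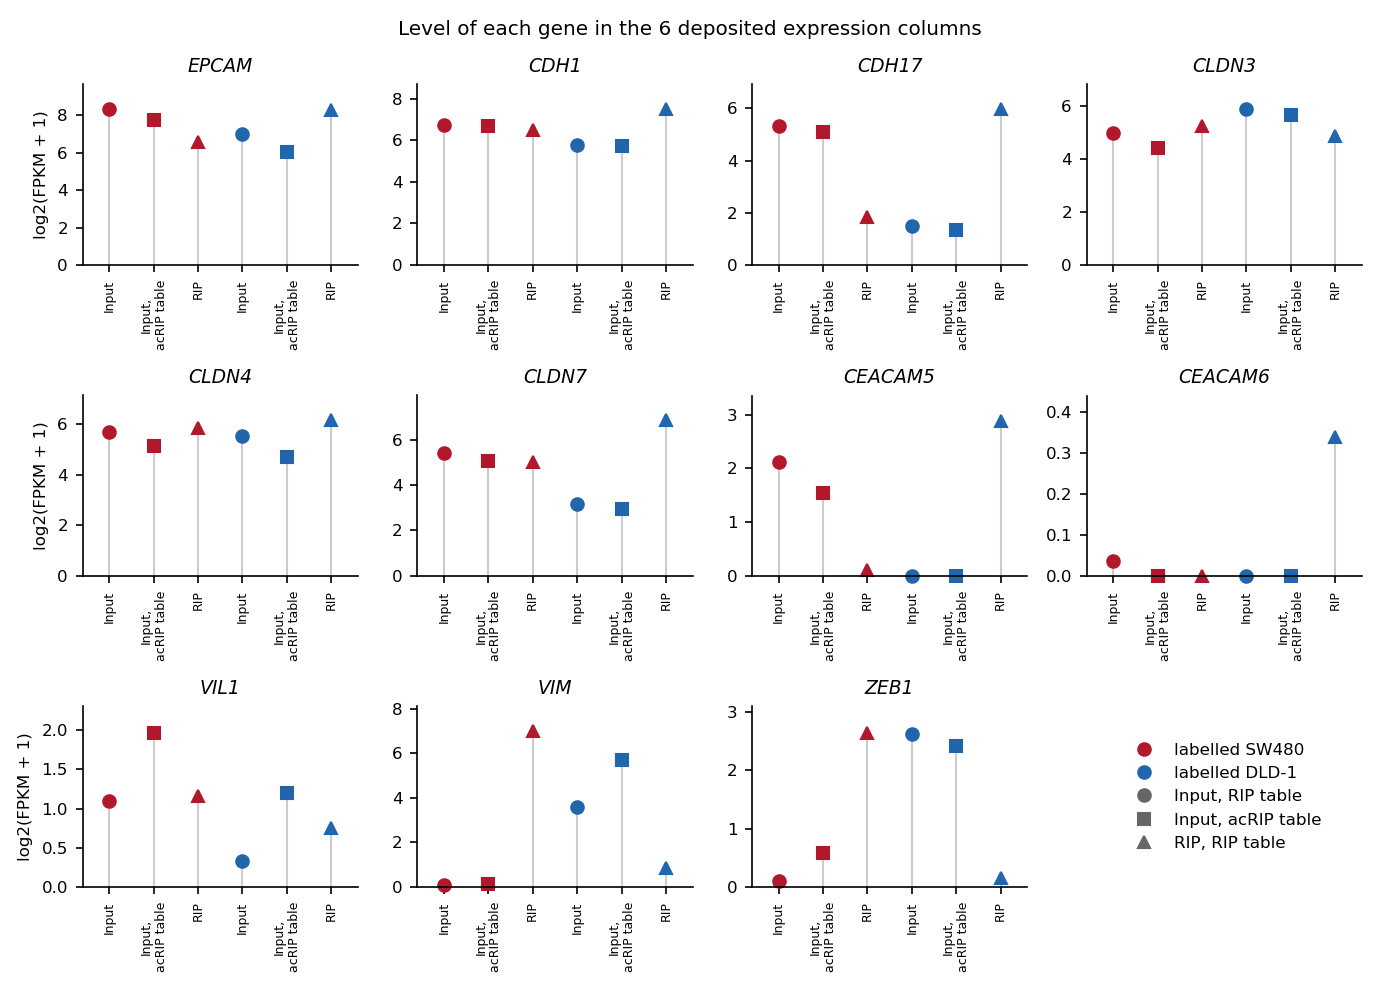
Level of each gene as log2(FPKM + 1) in the 6 deposited columns, with red for libraries labelled SW480 and blue for DLD-1, circles for Inputs of the RIP table, squares for Inputs of the acRIP table and triangles for RIP libraries. Each panel has its own vertical scale from 0, and each point is 1 column with no replicate; CDH17 stands at 33.0 FPKM or more in 3 columns and at 2.54 FPKM or less in the rest.

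The cadherins differed in the same direction within each pair of libraries. CDH1 (E-cadherin), the core of the adherens junction, was at 107 and 54.1 FPKM in the Inputs labelled SW480 and DLD-1, and at 89.5 and 180 FPKM in the RIP libraries. In the acRIP table it was at 100.3 and 52.3 FPKM. CDH17 (liver-intestine cadherin) had the widest span of the junction genes. It was at 38.7 FPKM in the Input and 61.7 FPKM in the RIP library that share the high EPCAM values, but at 1.85 and 2.54 FPKM in the Input labelled DLD-1 and the RIP library labelled SW480. The acRIP table gave 33.0 FPKM under SW480 and 1.52 FPKM under DLD-1. CDH17 was therefore low, yet not 0, in 3 columns, with 92 reads in the Input labelled DLD-1 and 278 reads in the RIP library labelled SW480.

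The claudins did not move as a block. CLDN7 was at 41.9 and 7.86 FPKM in the Inputs labelled SW480 and DLD-1, 31.1 and 115 FPKM in the RIP libraries, and 31.9 and 6.71 FPKM in the acRIP table, so that only the Inputs labelled DLD-1 were low. CLDN3 ran the other way, at 30.8 and 57.6 FPKM in the Inputs, 36.5 and 28.3 FPKM in the RIP libraries, and 20.2 and 49.1 FPKM in the acRIP table. CLDN4, which lies near CLDN3 on chromosome 7, was the most even of the well expressed genes. Its values were 50.6 and 44.5 FPKM in the Inputs, 55.6 and 70.1 FPKM in the RIP libraries, and 33.7 and 25.2 FPKM in the acRIP table.

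The carcinoembryonic antigens and villin were low. CEACAM5, the antigen measured in blood as CEA, was at 3.33 FPKM (140 reads) in the Input labelled SW480 and 6.34 FPKM (459 reads) in the RIP library labelled DLD-1. It was listed at 0 in the Input labelled DLD-1 in both tables, at 1.90 FPKM in the acRIP-table Input labelled SW480, and had 7 reads (0.0822 FPKM) in the RIP library labelled SW480. CEACAM6 had 18 reads in the RIP library labelled DLD-1 (0.265 FPKM), 1 read in the Input labelled SW480 and 0 in the other columns, and passed the FPKM minimum of 1 nowhere. As the 2 genes are close paralogs, so few reads may be shared with CEACAM5, which was not tested. VIL1, which bundles actin in the microvilli of the brush border, was at 1.13 and 0.261 FPKM in the Inputs, 1.24 and 0.687 FPKM in the RIP libraries and 2.89 and 1.30 FPKM in the acRIP table. VIL1 alone of the 9 was higher under the label SW480 in all 3 pairs.

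To ask which library pairs hold the difference between the lines, libraries labelled SW480 were set against those labelled DLD-1. A gene was counted as higher or lower past a 2-fold difference of FPKM + 1, where at least 1 of both libraries had an FPKM of 1 or more. Between the Inputs of the RIP table, 4 of the 8 genes that passed this minimum were higher under SW480 (EPCAM, CDH17, CLDN7 and CEACAM5) and 0 were lower, where 15.1% of 17987 tested genes were higher and 20.9% lower. Their median log2 difference was 1.16, against -0.08 over all genes tested. CDH17 was 21.0-fold higher (95% exact counting interval 17.0 to 26.1), CLDN7 5.33-fold (4.59 to 6.22) and EPCAM 2.56-fold (2.46 to 2.67). CEACAM5 had 0 reads in the Input labelled DLD-1, so that it was at least 43.1-fold higher against a floor of 3 reads, and its exact interval began at 34.6-fold. CDH1 lay just inside the threshold, 1.97-fold higher (1.87 to 2.09). CLDN3 was 1.87-fold lower (1.68 to 2.07), CLDN4 differed 1.14-fold (1.08 to 1.20), and VIL1 differed 4.34-fold (2.75 to 7.13) on few reads, which the added 1 FPKM brings below 2-fold.

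The second pair of Inputs, from the acRIP table, gave the same sign for each of the 8 genes tested. The same 4 genes were higher under SW480 and CLDN3 was lower, of 8 that passed the minimum, against 15.8% higher and 20.0% lower of all 17417 genes tested. The log2 differences were 1.70 for EPCAM, 3.76 for CDH17, 2.09 for CLDN7, 1.53 for CEACAM5 and -1.24 for CLDN3. Reads could not be recovered from this table, so its values carry no counting interval and its depth is unknown.

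The RIP libraries gave the opposite sign for 7 of the 8 genes tested, all but VIL1. How many of all genes turned sign was not counted, so the turn is not shown to be particular to these genes. Under SW480, 0 of the 8 genes tested were higher and 5 were lower, against 14.4% higher and 9.60% lower of all 15143 genes tested. CDH17 was 24.3-fold lower (21.5 to 27.5), CEACAM5 77.1-fold (37.1 to 193), CLDN7 3.70-fold (3.50 to 3.90), EPCAM 3.22-fold (3.11 to 3.33) and CDH1 2.01-fold (1.95 to 2.08). The median log2 difference was -1.34, against 0.08 over all genes tested. CLDN3 was 1.29-fold higher (1.18 to 1.40), VIL1 1.80-fold higher (1.43 to 2.27) and CLDN4 1.26-fold lower (1.22 to 1.30). The 4 genes past 2-fold between the Inputs were thus all past 2-fold in the RIP libraries with the sign turned. CDH1, CLDN3 and CLDN4 turned as well, with smaller differences, and VIL1 kept its sign.

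**Figure D2:**
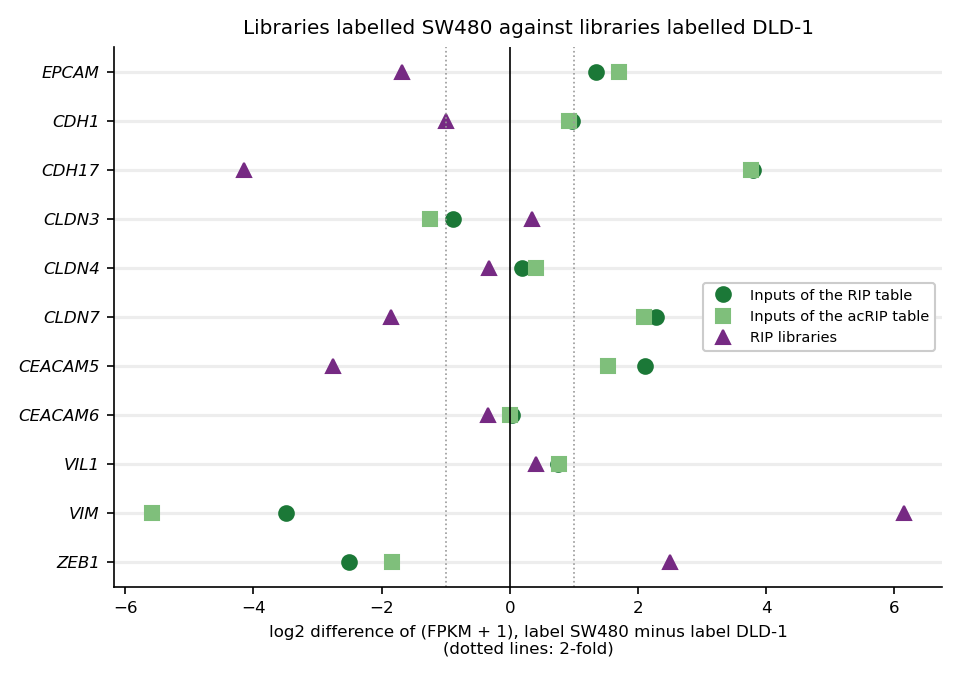
Log2 difference of FPKM + 1 between the library labelled SW480 and that labelled DLD-1 (horizontal axis) for the 9 genes, VIM and ZEB1, with circles for Inputs of the RIP table, squares for Inputs of the acRIP table and triangles for RIP libraries. CDH17 stands at 3.80 and 3.76 in the Inputs and at -4.15 in RIP, and VIM at -3.50, -5.58 and 6.16.

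RIP over Input is the comparison that the NAT10 pull-down was made for. As labelled, EPCAM, CDH17 and CEACAM5 passed 2-fold in opposite directions under the 2 labels, while CLDN4 and VIL1 had the same sign under both. Under SW480, 0 of the 8 genes tested were higher in RIP and 3 were lower (EPCAM, CDH17 and CEACAM5), with 22.3% of all 17042 genes tested higher and 21.2% lower. EPCAM was 3.41-fold lower (3.29 to 3.53), CDH17 15.2-fold lower (13.4 to 17.3) and CEACAM5 40.5-fold lower (19.2 to 103). Under DLD-1, 5 of 7 were higher and 0 lower, with 18.3% of all 17211 genes tested higher and 28.1% lower. CDH17 was 33.4-fold higher (27.2 to 41.5), CLDN7 14.6-fold (12.7 to 16.9), CDH1 3.34-fold (3.17 to 3.51), EPCAM 2.42-fold (2.32 to 2.52) and CEACAM5 at least 82.0-fold against the floor of 3 reads, with an exact interval that began at 66.4-fold. EPCAM, CDH17 and CEACAM5 were thus low in RIP under one label and high under the other. Each of these comparisons uses an Input or a RIP library of the comparisons above, so they are not independent of them.

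Set over the Input with the other label, the differences that had passed 2-fold shrank. For the RIP library labelled SW480, those of CDH1, CLDN3, CLDN4, CLDN7 and VIL1, which had been within 2-fold, grew instead. For the RIP library labelled SW480 over the Input labelled DLD-1, 1 of 7 genes was higher and 0 lower (12.6% and 17.2% of all 16961 tested). For the RIP library labelled DLD-1 over the Input labelled SW480, 1 of 8 was higher and 0 lower (13.2% and 17.6% of all 16001 tested). That gene was CLDN7 both times, at 3.96-fold (3.42 to 4.60) and 2.75-fold (2.58 to 2.93). Over the Input of the same label, CLDN7 had been 1.35-fold lower (1.25 to 1.45) for SW480 and 14.6-fold higher for DLD-1. CDH17 went from 15.2-fold lower to 1.38-fold higher (1.08 to 1.76) for the RIP library labelled SW480, and from 33.4-fold to 1.59-fold higher (1.52 to 1.68) for that labelled DLD-1. CDH1 was 1.66-fold (1.57 to 1.75) and 1.69-fold (1.63 to 1.75) higher, and CLDN4 1.25-fold (1.19 to 1.31) and 1.38-fold (1.33 to 1.44) higher. EPCAM was 1.33-fold lower (1.27 to 1.39) and 1.06-fold lower (1.03 to 1.09).

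**Figure D3:**
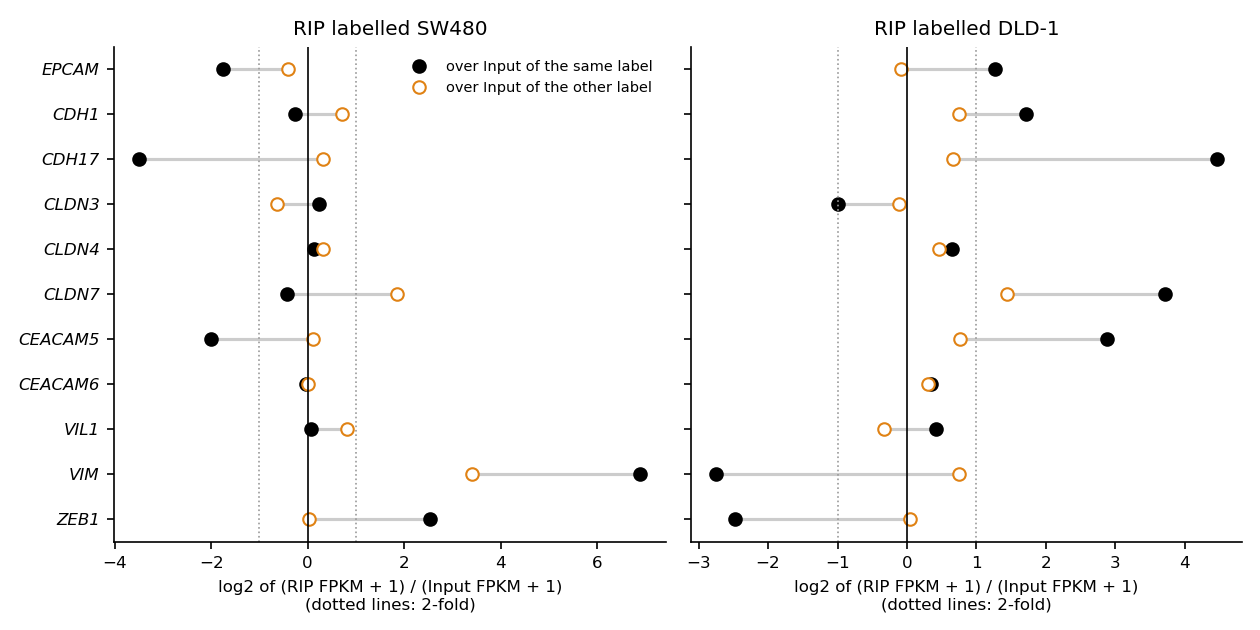
Log2 of RIP over Input, each as FPKM + 1, for the RIP library labelled SW480 (left) and DLD-1 (right), with black points over the Input of the same label and open orange points over the Input of the other label, joined by a grey line. Dotted lines mark 2-fold. CDH17 moves from -3.49 to 0.32 on the left and from 4.46 to 0.66 on the right, and VIM moves from 6.90 to 3.41 on the left.

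Closeness of the whole set was read in FPKM + 1, with no FPKM minimum for the 9 genes. The RIP library labelled SW480 had 8 of the 9 genes within 2-fold of the Input labelled DLD-1 and 6 within 2-fold of the Input labelled SW480. The 8 include VIL1, whose FPKM was 4.73-fold higher (3.08 to 7.61), and CEACAM5 and CEACAM6, which were near 0 in both libraries. The RIP library labelled DLD-1 had 8 within 2-fold of the Input labelled SW480 and 4 within 2-fold of the Input labelled DLD-1. The largest single difference fell from 3.49 to 1.86 and from 4.46 to 1.44 (log2) on exchanging the Input. The median absolute difference did not follow for the RIP library labelled SW480, at 0.25 with its own label and 0.41 with the other, as CDH1, CLDN3, CLDN4, CLDN7 and VIL1 lay closer to the Input of the same label. For the RIP library labelled DLD-1 it was 1.27 and 0.46. Protein-coding genes went the same way by count, with 67.0% within 2-fold under the label SW480 against 84.2% over the other label, and 63.6% against 83.7% for DLD-1. Those shares are of genes that passed the FPKM minimum, so they do not have the same base as the counts of the 9 genes. The crossed resemblance of the RIP library labelled SW480 was therefore carried by CDH17, CEACAM5 and EPCAM among the 9 genes.

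The other genes of the junctions and the cell surface were read from lists of 77 genes, of which 64 passed the FPKM minimum in the Inputs of the RIP table. Past 2-fold between those Inputs were 37, of which 37 had the same sign in the Inputs of the acRIP table (36 of them above the FPKM minimum there) and 1 had the same sign in the RIP libraries. That gene was SNAI1, at 8.64 and 1.93 FPKM in the Inputs labelled SW480 and DLD-1 and 6.21 and 5.82 FPKM in RIP. Of all 17987 genes tested between those Inputs, 15.1% were higher and 20.9% lower under SW480, with a median log2 difference of -0.08. These shares are the background of each list count below. How many of all genes turned sign in RIP was not counted, so the turn is not shown to be particular to these lists. Genes below are those that differed most between the Inputs in each list.

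**Figure D4:**
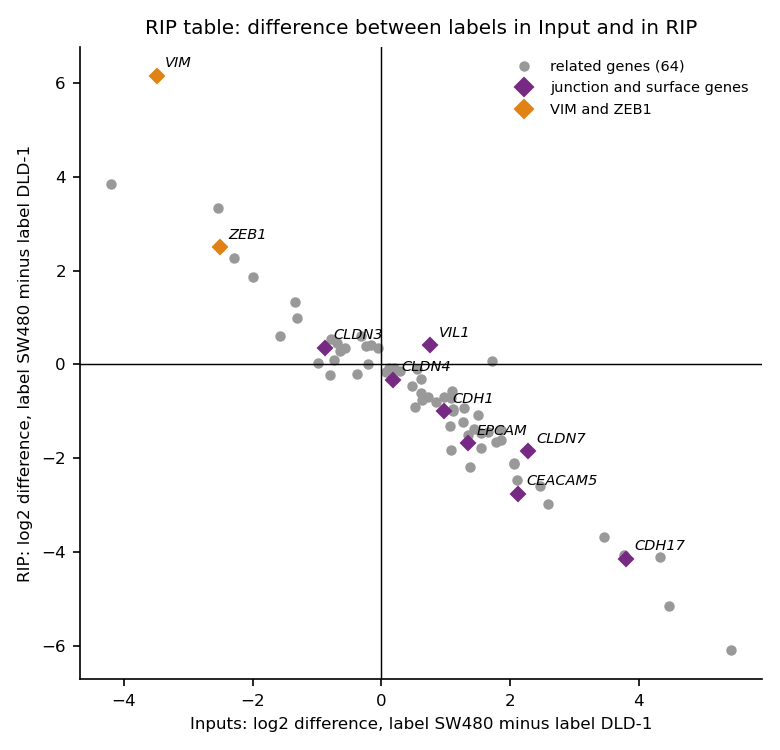
Difference between the labels (SW480 minus DLD-1, log2 of FPKM + 1) in the Inputs (horizontal axis) against that in the RIP libraries (vertical axis) of the RIP table. Grey points are the 64 related genes, purple diamonds the junction and surface genes that passed the FPKM minimum in the Inputs, and orange diamonds VIM and ZEB1; most points lie in the upper left and lower right, and VIL1 lies in the upper right.

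Of 11 adherens junction genes tested, 3 were higher and 2 lower under SW480 in the Inputs, with a median log2 difference of 0.20. JUP (plakoglobin), which ties cadherins to the cytoskeleton, was at 128 and 36.5 FPKM in the Inputs and 33.1 and 106 FPKM in RIP. The nectins split, since NECTIN4 was at 3.44 and 0.719 FPKM in the Inputs while NECTIN1 was at 3.58 and 17.2 FPKM. Of 12 tight junction genes, 3 were higher and 1 lower, with a median of 0.04. CGN (cingulin) was at 4.90 and 0.422 FPKM, MARVELD3 at 8.79 and 1.70 FPKM, and CLDN2, a cation pore of leaky epithelia, at 2.28 and 18.2 FPKM. CLDN2 thus sided with CLDN3 and against CLDN7, and its RIP values were turned, at 28.2 and 1.90 FPKM.

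Of 7 desmosome genes, 4 were higher under SW480 in the Inputs and 0 lower. PKP2 (plakophilin 2) was at 50.7 and 17.3 FPKM, the desmosomal cadherin DSG2 at 32.9 and 14.6 FPKM, and PKP3 at 31.6 and 14.4 FPKM. The brush border list split, with 2 of 7 higher and 2 lower. USH1C (harmonin) was at 0.152 and 20.1 FPKM and its partner CDHR5, a protocadherin between microvilli, at 0.903 and 8.31 FPKM, whereas EPS8 was at 43.1 and 15.2 FPKM. In RIP, USH1C was at 15.9 and 0.176 FPKM.

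Surface glycoproteins and regulators held the widest differences. Of 13 glycoprotein genes tested, 8 were higher and 2 lower under SW480 in the Inputs, with a median of 1.27. CD24, a small mucin-like surface protein, was at 51.1 and 0.206 FPKM in the Inputs and 0.201 and 81.5 FPKM in RIP. TSPAN8, a tetraspanin of the cell surface, was at 21.8 and 0.684 FPKM in the Inputs. Of 11 epithelial regulators, 8 were higher and 0 lower in the Inputs, with a median of 1.55. In RIP, 0 were higher and 7 lower, against 14.4% higher and 9.60% lower of all 15143 genes tested. EHF was at 66.2 and 2.05 FPKM, GRHL2, an activator of CDH1, at 20.0 and 0.0424 FPKM, and OVOL1, a repressor of ZEB1, at 7.53 and 0.415 FPKM. Of the 3 repressors of CDH1 tested, ZEB1 was lower, SNAI1 higher and TCF3 at 44.3 and 39.7 FPKM.

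The members were also compared by profile, as the distance between log2(FPKM + 1) values over the 4 libraries of the RIP table and the 2 Inputs of the acRIP table, each centred on its own mean. CDH17 and CLDN3 were the farthest apart, at 5.86. EPCAM lay nearest to CEACAM5 (1.17) and then CDH1 (1.25), and CLDN7 lay nearest to CEACAM5 (1.43). CLDN4, CEACAM6 and VIL1 lay near each other, at 0.387 to 0.914. CLDN4 varied little, whereas CEACAM6 and VIL1 were low, so that the added 1 FPKM flattened their profiles. VIL1 differed 4.34-fold between the Inputs of the RIP table without it. The candidates were 11856 protein-coding genes, a count that includes the members that passed the same minimum. Of the other genes, those nearest to the members' mean were PRR3 (0.0727), PRC1 (0.0971) and MOB3B (0.0989), where the median gene lay at 1.71. Nearest to CDH1 were NTHL1, TMEM59 and ELOVL7 (0.120 to 0.124), nearest to EPCAM LYPD6, SPRY1 and FUT2 (0.102 to 0.170), and nearest to CDH17 TMEM200A, HIST1H2BH and SLC44A4 (0.420 to 0.506). Those nearest to CEACAM6 (TOR1B, MCMBP and TCHP, 0.0561 to 0.0806) were even in all columns, as CEACAM6 was near 0. Distances over 6 columns of the same libraries are a description.

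Which of the transcripts carried ac4C was read from the peaks deposited for each acRIP library, each with a fold of acRIP over Input within the peak given by the authors. In the list of the library labelled SW480, 2 of the 9 genes had a peak, CLDN4 and CLDN7. In that labelled DLD-1, 4 had a peak, EPCAM, CDH1, CLDN4 and CLDN7. Among all genes whose Input reached 1 FPKM, 39.5% had a peak under SW480 and 41.7% under DLD-1, and 8 and 7 of the 9 genes passed that level. Among protein-coding genes at that level the shares were 50.6% and 53.5%. With so few genes, the members are not set apart from either background. CDH17, CLDN3, CEACAM5, CEACAM6 and VIL1 had no peak in either list, CDH17 even under SW480, where its Input was at 33.0 FPKM. The acRIP libraries have no expression column here, so the label of those 2 libraries could not be checked against VIM and ZEB1. The folds rest on Inputs, and those of the acRIP table ran opposite to their labels for VIM and ZEB1. Whether each acRIP library and the Input of its folds came from the same line could not be checked. This limit holds for every fold and every difference between the lists below. VIM had 1 peak, under SW480, of 9.37-fold, with an FDR above 0.05.

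In CLDN4, a gene at chr7:73830996-73832690 on the plus strand, the list for SW480 held 2 overlapping peaks in the 3′ UTR (3.14- and 3.28-fold), which together begin at chr7:73832086 and end at chr7:73832280. The list for DLD-1 held 7 peaks in 3 regions of CLDN4, with 2.06- to 4.54-fold. One region lay in the coding sequence (chr7:73831424-73831728), one overlapped the region of SW480, and one reached to 27 bases from the gene's end. CLDN4 was the only member whose peaks overlapped between the lists. All of its 9 peaks held the motif of spaced cytidines that the authors annotated, which 56.2% of all peaks under SW480 and 55.1% under DLD-1 held. The 9 peaks overlap each other within 3 regions, so the same stretches were counted more than once and the peaks are not independent. These were weak peaks, since the median fold was 19.5 in the SW480 list and 14.6 in the DLD-1 list.

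In CLDN7, on the minus strand of chromosome 17, the peaks lay in different parts of the transcript. The list for SW480 held 1 peak in the 3′ UTR (chr17:7260259-7260496, 6.72-fold), without the motif. The list for DLD-1 held 1 in the coding sequence (chr17:7260660-7261081, spanning 2 blocks, 10.1-fold) and 1 in the 5′ UTR (chr17:7262141-7262378, 18.9-fold), each with 1 motif. The Input of CLDN7 was 4.75-fold higher under SW480 than under DLD-1 in the acRIP table.

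EPCAM and CDH1 had peaks under DLD-1 alone. In CDH1, on chromosome 16, both lay in the 3′ UTR, at chr16:68833599-68833839 (9.73-fold) and at chr16:68835218-68835488 (66.9-fold), the latter 49 bases from the gene's end and above 90.4% of the folds in its list. Neither held the motif. In EPCAM, on chromosome 2, 1 peak lay in the coding sequence at chr2:47373834-47373984 (12.0-fold, 1 motif). The other spanned 5 blocks of coding sequence between chr2:47377033 and chr2:47386628 (19.3-fold, none). Among the peaks called on both libraries together, CDH1 had 2, CLDN4 2, CLDN7 1 and EPCAM none. The Inputs of EPCAM and CDH1 in the acRIP table were 3.29- and 1.92-fold lower under DLD-1, where the peaks were listed; the part of this in the peak calls was not tested.

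**Figure D5:**
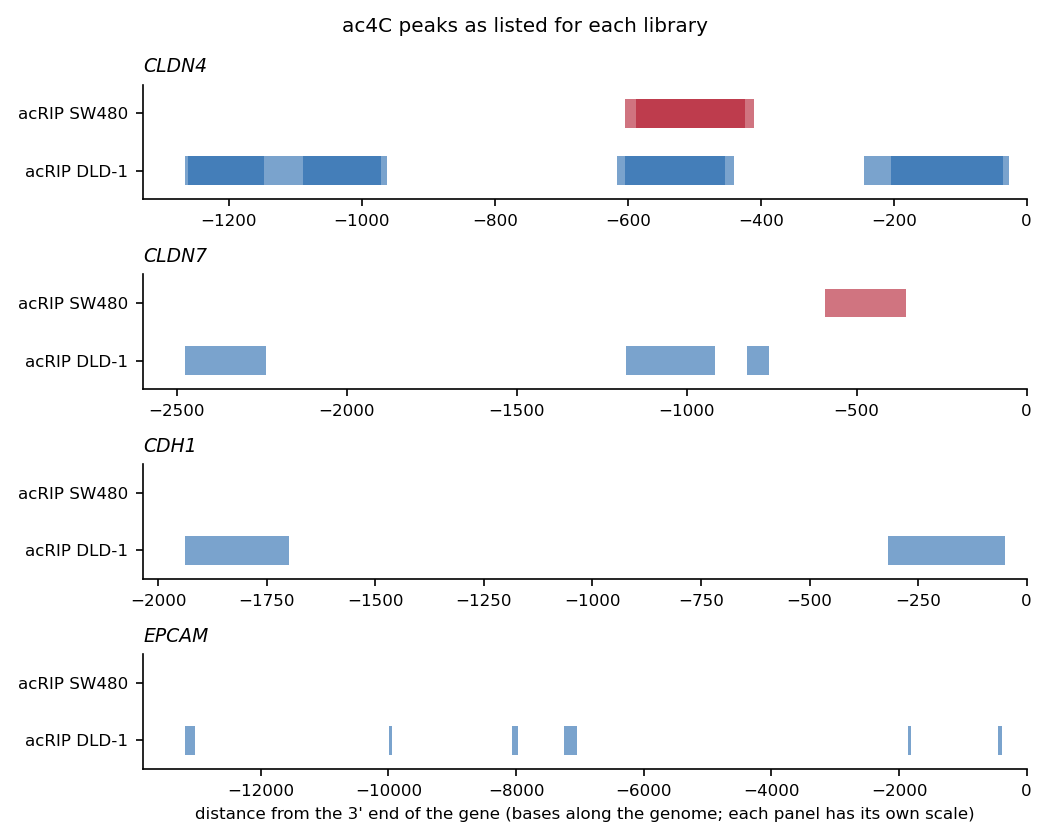
Peaks of ac4C in CLDN4, CLDN7, CDH1 and EPCAM by distance from the 3′ end of the gene in bases along the genome (horizontal axis, a separate scale per gene), red for the list labelled SW480 and blue for DLD-1, with darker colour where peaks overlap and a bar per block. The lists meet only in the 3′ UTR of CLDN4.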

How the data were processed

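RIP-seq, acRIP-seq and Input libraries of SW480 and DLD-1 were grouped by their titles, 1 library per group. The authors deposited FPKM values for RIP and Input, made by a sequencing provider. A second deposited table of Input values names no unit and was read as FPKM. Values were compared within a table, except where stated. For ac4C the authors deposited peak lists per library and on both libraries together, with p-values (in the column headed score), the log10 of the FDR and fold ratios of acRIP over Input. Peaks whose FDR entry was a spreadsheet error were kept as below 0.05. The peak caller and the counting tool, and whether counting used strand, are not given in the sources used here; the submitters' processing notes list cutadapt 2.5 and HISAT2 2.1.0. The study's text names an IgG group, the table Input. Deposited RIP/Input ratios and their means were not used.

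Differences were log2((a + 1)/(b + 1)) of FPKM, in which the added 1 FPKM shrinks differences of low genes, called past 2-fold among genes with FPKM of at least 1 in at least 1 library compared. Reads were recovered as the lowest whole numbers in proportion to the FPKM of a gene, so counting errors are upper limits. Fold intervals are exact binomial (Clopper-Pearson, 95%), with a floor of 3 reads for a count of 0. Read recovery was tested on simulated data. Peaks were shared from 1 overlapping base on, strand by strand. Coordinates are on GRCh38, 1-based, with gene bounds and upstream sequences from RefSeq (GRCh38.p14). Named genes were the 9 genes, VIM, ZEB1, up to 3 genes per related list with the largest Input difference, and the 3 genes nearest in profile to the members' mean, CDH1, EPCAM, CDH17 and CEACAM6. One named gene is not reported here. The analysis used Python 3.11.15, NumPy 2.4.6, pandas 2.3.3, SciPy 1.17.1, Biopython 1.88 and matplotlib 3.10.9. The alternatives were another pseudocount, filter, centring, fold and Input, and stricter peaks. The members and lists were chosen with earlier results of these data known.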

Additional observations from a re-analysis of the deposited data

Results flagged for a closer look

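RIP over Input had opposite signs under the 2 labels for 6 of the 8 genes that reached 1 FPKM in the RIP table and for VIM and ZEB1, with 1 library in each place, so that the difference was not tested. The share of all genes with opposite signs was not counted, so this is not shown to be particular to these genes. The difference of the log2 ratios, label SW480 minus label DLD-1, was -7.95 for CDH17, -4.88 for CEACAM5, -4.13 for CLDN7, -3.03 for EPCAM and -1.97 for CDH1. It was 1.23 for CLDN3, 5.01 for ZEB1 and 9.65 for VIM. With the Inputs exchanged, the signs under the 2 labels were the same for all of these 8 genes. They had been picked for opposite signs, and some of the new values were near 0, as for ZEB1 (0.03 and 0.04). VIL1, whose signs had been the same, took opposite signs on the exchange (0.83 and -0.34), while those of CLDN4 stayed the same. VIM was still 11.5-fold higher (10.4 to 12.7) in the RIP library labelled SW480 than in the Input labelled DLD-1, and its Input value under DLD-1 was 11.1 FPKM in the RIP table and 51.2 FPKM in the acRIP table.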

How the results depend on the processing

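No paired analysis was possible because each group held 1 library and no test was made, and no library could be left out. The count of members past 2-fold changed by over 1.5 times under 4 alternatives. Between the Inputs of the RIP table it went from 4 to 7 at 1.5-fold. For RIP over Input it went from 3 to 1 (label SW480) and from 5 to 1 (label DLD-1) with the Input of the other label, and from 5 to 2 for DLD-1 with the Input labelled SW480 of the acRIP table, centred on protein-coding genes. The other 34 counts stayed within 1.5 times, peaks included, though a count can hold while its genes change. One such case was the RIP library labelled SW480 over the acRIP-table Input labelled DLD-1, centred. There CLDN7 (1.41) and CLDN3 (-1.06) were past 2-fold in place of EPCAM, CDH17 and CEACAM5. Centring or another Input gave 46 values for members that were past 2-fold, and 42 kept their sign. Of the 46, 22 came from centring alone, whose shift was too small to turn a sign, so 42 overstates how stable the signs were. The 4 values that turned all did so with the Input of the other label. CDH17 went to 0.32 and CEACAM5 to 0.11 for the RIP library labelled SW480. EPCAM went to -0.084 for that labelled DLD-1 with the RIP-table Input and to -0.083 with that of the acRIP table. The causes were not tested. Centring moved RIP over Input under SW480 by 0.25, the median of protein-coding genes, and the other comparisons by under 0.1. The low counts of CEACAM5, CEACAM6 and VIL1 limit their ratios.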
